A study of Mus musculus with 58 samples.

Results

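Enterochromaffin cells were represented here by 72 single-cell wells of mouse small-intestinal organoids, chosen by their Tph1 level, as wells with at least 1500 transcripts in all and at least 5 transcripts of Tph1, the gene for tryptophan hydroxylase 1. They came from 251 wells that reached 1500 transcripts in 6 single-cell libraries, and from 396 such wells over all 8 single-cell libraries of the study. The organoids were grown from Bl/6 small intestine. The groups used below were organoids in standard ENR medium (EGF, Noggin and R-spondin), with 1 single-cell library, and organoids under EGFR inhibition alone, with 1. They were followed by organoids under combined Wnt, Notch and EGFR inhibition, with 4, called EGFR libraries 1 to 4 here, and organoids under combined Wnt, Notch and Mek inhibition, with 2, called Mek libraries 1 and 2. The labels name the pathways and not the compounds, give no treatment time for the single cells, and give no age or number of mice. EGFR library 4 and Mek library 1 were the shallowest, with medians of 224 and 394 transcripts over all 96 wells, where the other 4 libraries had medians of 498 to 3449. Bulk libraries of whole organoids after 96 h were used as samples that the choice of wells did not touch, with 3 each in standard medium, under EGFR inhibition, under Mek inhibition, under Wnt and Notch inhibition, and under the 2 triple combinations. Where the labels do not say that replicates came from separate cultures, a p-value measures only the spread between these libraries, which may be technical.

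Enterochromaffin cells are the serotonin-producing endocrine cells of the gut epithelium. They hydroxylate tryptophan with Tph1, decarboxylate the product with Ddc, load serotonin into secretory granules built with chromogranins, and release it onto nerve endings and neighbouring cells when nutrients, irritants or stretch are sensed. Like the other hormone cells of the intestine they arise from progenitors that briefly express the transcription factor Neurog3. Many of them also make Tac1, the precursor of substance P.

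The Tph1 threshold set these wells apart as a description, since Tph1 itself chose them. Tph1 ranged from 5 to 56 transcripts over the 72 wells, with a median of 15. Just inside the threshold were 2 wells with 5 transcripts and 5 wells with 6, and just outside were 1 well with 4 and 1 well with 3. Of the other kept wells, 133 had no Tph1 transcript, 33 had 1 and 11 had 2. Wells with no endocrine profile carried a low background of Tph1, with a transcript in 27 of 138 wells (19.6%) and never more than 2. These wells had a median depth of 4879 transcripts, against 4089 in the Tph1-positive wells.

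The label was checked against markers of each epithelial type. The chromogranin genes Chga and Chgb, general markers of endocrine cells, summed to at least 10 transcripts in all 72 wells, a bar that 41 other kept wells also passed and that 138 did not. Tac1 had a median of 7 transcripts (0 to 74), Chga a median of 39 (0 to 371) and Chgb at least 20 in every well. Ddc was found in 71 of the 72 wells, and so was Fev, the ETS factor that marks serotonin neurons and enteroendocrine cells. Markers of other types were read in the same wells. The 6 enterocyte markers were not at 0 for any gene and summed to a median of 6.59 transcripts per 10000 (0 to 37.1), with at most 22 transcripts in a well and 8 of the 72 wells at 0, against medians of 19.7 in other endocrine wells and 94.1 in wells without an endocrine profile. Of 6 Paneth markers, Lyz1, Defa22, Mptx2 and Ang4 were at 0 in all 72 wells, and the summed list reached at most 2 transcripts in a well. In other endocrine wells and wells without an endocrine profile that sum reached 136 and 119, but its median was 0 and Defa22 was at 0 in both. The dividing-cell markers Mki67, Top2a, Ccnb1 and Cdk1 were at 0 in all 72, and also in all 138 wells without an endocrine profile. The summed tuft markers reached at most 4 transcripts, with Gfi1b at 0, and the summed stem markers at most 3, with Ascl2 and Olfm4 at 0. In the other endocrine wells these sums reached at most 7 and 6, with Gfi1b and Olfm4 also at 0. In wells without an endocrine profile they reached 148 and 6, with Olfm4 at 0. Both sums had a median of 0 in every class, so they set these wells little apart. Of 5 immune and stromal markers measured, Ptprc, Cd3e, Csf1r and Col1a2 were at 0, while Vim, the intermediate filament vimentin, was found in 57 wells. The 6 goblet markers, which include Tff3, were not at 0 for any gene and summed to a median of 20.8 transcripts per 10000 with a maximum of 1043. That sum had a median of 10.4 and a maximum of 943 in other endocrine wells. In wells without an endocrine profile its median was 4.78 and its maximum 1872. The part of the enterocyte and goblet markers in the results was not tested.

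Tph1 lies on chromosome 7 at 46644641 to 46672537 on the minus strand, Tac1 on chromosome 6 at 7554879 to 7565834, Reg4 on chromosome 3 at 98222156 to 98236748 and Lmx1a on chromosome 1 at 167689237 to 167848741, the last 3 on the plus strand (GENCODE M21, build GRCm38). Their promoters are shown because Tac1, Reg4 and the homeodomain factor Lmx1a had the largest differences among the genes named as higher in Tph1-positive than other endocrine wells below that had a promoter entry. Each runs 5′ to 3′ from 250 bases before to 50 bases after an annotated start (RefSeq, build GRCm38.p6), with capitals on every CANNTG, the E-box read by basic helix-loop-helix factors such as Neurog3, and every TAATTA, a core read by homeodomain proteins. Both strands were searched.
Tph1, chr7:46667328-46667627, minus strand: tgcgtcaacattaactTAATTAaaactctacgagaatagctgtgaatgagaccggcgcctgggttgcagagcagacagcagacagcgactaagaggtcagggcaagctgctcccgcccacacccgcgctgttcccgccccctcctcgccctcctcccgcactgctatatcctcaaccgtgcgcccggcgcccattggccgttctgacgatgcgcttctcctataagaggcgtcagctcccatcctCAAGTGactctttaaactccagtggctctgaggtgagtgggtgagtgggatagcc
Tac1, chr6:7554811-7555110, plus strand: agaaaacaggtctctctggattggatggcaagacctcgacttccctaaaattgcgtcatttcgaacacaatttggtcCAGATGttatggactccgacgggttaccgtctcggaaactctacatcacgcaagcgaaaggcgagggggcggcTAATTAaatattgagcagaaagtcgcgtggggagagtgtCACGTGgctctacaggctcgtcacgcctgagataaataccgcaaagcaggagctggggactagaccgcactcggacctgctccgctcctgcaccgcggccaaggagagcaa
Reg4, chr3:98221906-98222205, plus strand: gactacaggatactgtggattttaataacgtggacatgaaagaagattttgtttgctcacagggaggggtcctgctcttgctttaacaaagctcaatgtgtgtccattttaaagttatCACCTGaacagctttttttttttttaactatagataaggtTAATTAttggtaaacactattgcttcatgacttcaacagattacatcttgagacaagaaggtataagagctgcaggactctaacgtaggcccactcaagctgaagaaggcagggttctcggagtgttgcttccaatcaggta
Lmx1a, chr1:167689308-167689607, plus strand: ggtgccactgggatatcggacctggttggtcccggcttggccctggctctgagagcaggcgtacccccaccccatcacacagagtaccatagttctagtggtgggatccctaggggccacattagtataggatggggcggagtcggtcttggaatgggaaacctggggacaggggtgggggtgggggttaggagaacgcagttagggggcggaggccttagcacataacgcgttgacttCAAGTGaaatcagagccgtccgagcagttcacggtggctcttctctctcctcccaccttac
The Tph1 window shown is at a start within the gene. Tph1 has another annotated start, at the 5′ end of the gene, whose window (chr7:46672488-46672787) held neither motif and is not shown. TAATTA was present in 3 of the 4 windows shown and CANNTG in all 4, which leaves out that Tph1 window. Among the 15 genes made up of Tph1, Chga, Chgb and the 12 genes named as higher among endocrine wells below, 12 had an entry, and the motifs were in 3 (TAATTA) and 8 (CANNTG) of them. Over 32851 promoters of the same length, 5.29% held TAATTA and 72.3% held CANNTG. A match is a description of letters and not of a bound site.

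The first question was how many wells were Tph1-positive under each treatment. In the 4 EGFR libraries they made up 18 of 60 kept wells (30%), 8 of 34 (23.5%), 12 of 50 (24%) and 4 of 23 (17.4%). In the Mek libraries they made up 1 of 21 (4.76%) and 29 of 63 (46.03%). The EGFR libraries thus lay between the 2 Mek libraries, and the groups overlapped. The mean share was 23.7% ± 5.15 (SD, n = 4) with EGFR and 25.4% ± 29.2 (SD, n = 2) with Mek inhibition, a difference of 1.67 points (two-sided exact permutation test, p = 0.933; 15 arrangements, smallest possible p 0.133). Without Mek library 1 the difference was 22.3 points and without Mek library 2 it was -19.0 points, so the direction rested on which Mek library was used. The exact 95% binomial intervals of the 2 Mek libraries, 0.12% to 23.8% and 33.4% to 59.1%, did not meet; they cover counting error only.

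**Figure D1:**
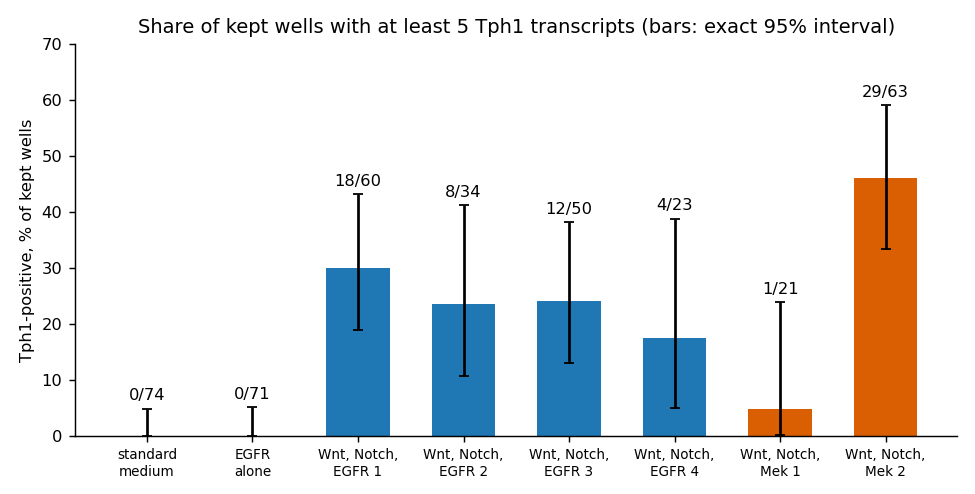
Percent of kept wells (y axis) with at least 5 Tph1 transcripts in each of the 8 single-cell libraries (x axis), with exact 95% binomial intervals as error bars and the numbers of wells above. The 4 EGFR libraries lie between 17.4% and 30%, the 2 Mek libraries at 4.76% and 46.03%, and the libraries in standard medium and under EGFR inhibition alone at 0.

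No kept well of the library in standard medium (0 of 74, exact 95% interval up to 4.86%) or of the library under EGFR inhibition alone (0 of 71, up to 5.06%) was Tph1-positive, and the highest Tph1 values there were 3 and 4 transcripts. These 2 libraries had 1 endocrine well each, so they say little of the make-up of endocrine cells. Within endocrine wells of the combined treatments, Tph1-positive wells were 18 of 33 (54.5%), 8 of 12 (66.7%), 12 of 15 (80%) and 4 of 7 (57.1%) in the EGFR libraries. In the Mek libraries they were 1 of 2 (50%) and 29 of 44 (65.9%). On this denominator the Mek mean differed from the EGFR mean by -6.63 points (exact permutation test, p = 0.533). That mean gives the share from 2 wells the same weight as the share from 44, so it says little. In the 2 shallow libraries, EGFR library 4 and Mek library 1, 73 and 75 of 96 wells fell below 1500 transcripts. Mek library 2 and EGFR library 1 supplied 29 and 18 of the 72 wells.

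Of 17 measured genes of serotonin synthesis and handling, 6 were found in at least 50% of the wells, and Slc6a4 and the amino acid transporter chain Slc7a5 were at 0 in all. Tph1 was at 39.1, 47.5, 54.7 and 77.8 transcripts per 10000 in the summed Tph1-positive wells of EGFR libraries 1 to 4, 72.02 in the single well of Mek library 1 and 38.5 in Mek library 2. Ddc, the decarboxylase that completes serotonin, was at 26.8, 24.6, 28.9, 43.02, 52.1 and 22.9 in the same order. Both genes were present in every library, and highest in EGFR library 4 and Mek library 1, which had the fewest Tph1-positive wells. Those wells were also the shallowest, with median depths of 2061 and 1561 transcripts. The threshold of 5 Tph1 transcripts is a higher level per 10000 in a shallow well, so the Tph1 levels by library are a description of the choice of wells. Gch1, which starts synthesis of the tetrahydrobiopterin cofactor of Tph1, was found in 56 wells, and Qdpr, which recycles it, in 65. Slc18a1, the vesicular monoamine transporter VMAT1, was found in 46 wells, whereas the related transporter Slc18a2 was found in 3. Slc6a4, the plasma membrane serotonin transporter that clears serotonin, was at 0 in all 72, while it was found in 29 of the 138 wells without an endocrine profile; after every well was thinned to 1500 transcripts these were 0 of 72 and 3 of 138. Maoa, which degrades serotonin, was found in 25 wells at no more than 3 transcripts, a level of 1.16 per 10000 against 11.7 in the other endocrine wells and 14.8 in wells without an endocrine profile. Tph2, the neuronal hydroxylase, was not analysed here.

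**Figure D2:**
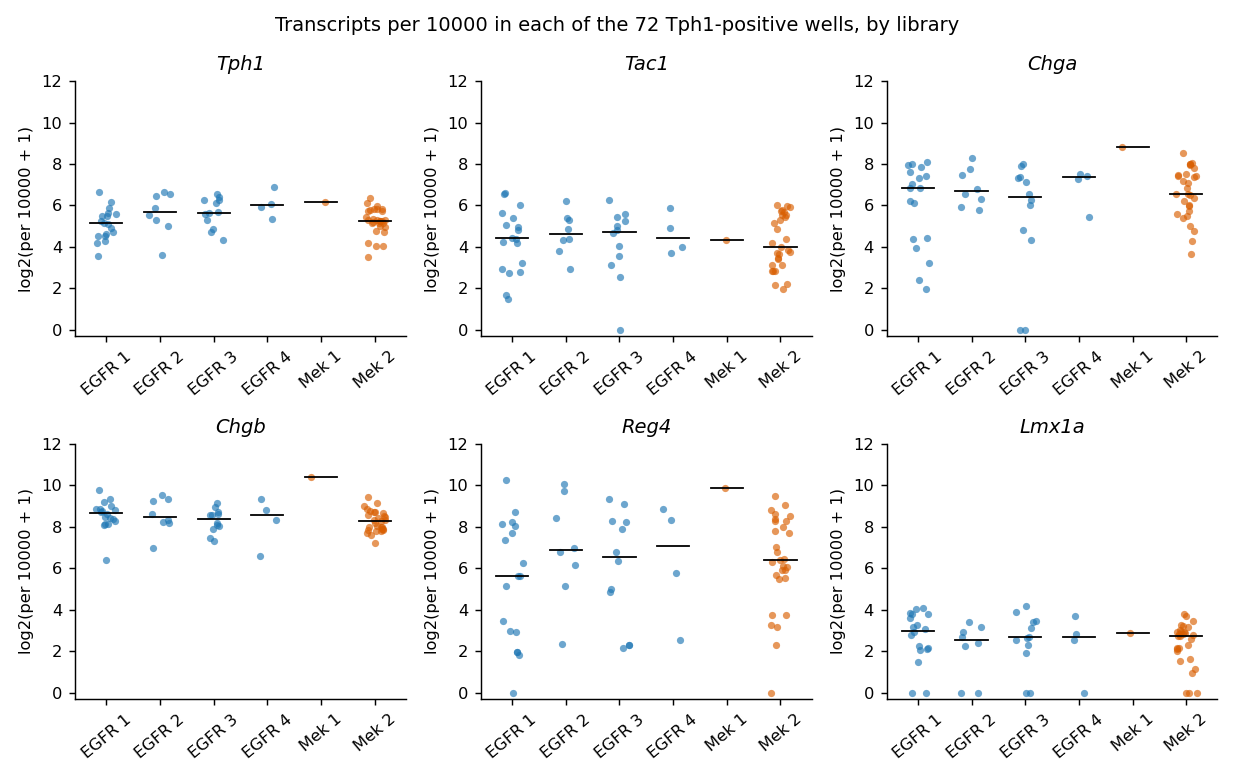
Level of 6 genes in each of the 72 Tph1-positive wells, as log2 of transcripts per 10000 plus 1 (y axis), by library (x axis; EGFR and Mek name the third inhibitor); each point is a well and the line is the median. Chga and Reg4 spread more widely than Tph1 and Chgb, Reg4 from 0 to 1420 transcripts.

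Set beside the 41 other endocrine wells, the Tph1-positive wells had more Reg4, a secreted lectin of the regenerating family, more Lmx1a, more Atf6, a sensor of stress in the endoplasmic reticulum, and less of the hormones Gcg and Cck. This comparison used the 5 libraries with at least 3 wells of each class. Transcripts were summed per library and class, and edgeR's quasi-likelihood test was run with library as a block. It asks what distinguishes serotonin cells from cells of the same lineage. Tph1, Chga and Chgb chose the classes and are left out; in the Tph1-positive wells they were at 128 ± 12.6 and 372 ± 34.6 per 10000 (SD, n = 5), against 6.99 ± 6.96 and 69.9 ± 64.7. Of 471 genes that passed the filter on low sums, 39 were higher (8.28% of those tested) and 32 lower (6.79%) at an adjusted p under 0.05.

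Reg4 was at 255.6, 327, 195 and 247 transcripts per 10000 in the Tph1-positive wells of EGFR libraries 1 to 4 and 187 in Mek library 2. In the other endocrine wells it was at 1.68, 0, 2.11, 77.1 and 3.96. The classes did not overlap, and EGFR library 4, with 3 other endocrine wells, held the high value. The fitted difference was 54.8-fold (log2 5.78 ± 1.27 SE, adjusted p = 0.0207), and the adjusted p rose to at most 0.103 when EGFR library 1 or Mek library 2 was left out. Tac1, one of the markers that define the label and therefore given as a description, was at 28.5 ± 2.82 against 2.55 ± 2.43 per 10000 (SD, n = 5), higher in 5 of 5 libraries.

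Of 6 endocrine transcription factors tested against the other endocrine wells, out of 21 measured, Lmx1a and Nkx2-2 were higher, none was lower, and Neurod1, Insm1, Rfx6 and Fev were not called. Lmx1a, a LIM homeodomain factor needed for Tph1 expression in mouse enterochromaffin cells, was at 7.89, 5.26, 7.12, 5.55 and 5.25 per 10000 in the Tph1-positive wells against 0.391, 1.36, 0, 3.60 and 0.219 in the other endocrine wells. Every Tph1-positive value lay above every other value, and the fitted difference was 11.5-fold (log2 3.52 ± 0.49 SE, adjusted p = 0.00568). Lmx1a had 17 transcripts in all these other endocrine wells together. It entered the test through the Tph1-positive wells and could only come out higher, so its fold and adjusted p are a description. Nkx2-2, the homeodomain factor upstream of Lmx1a in mouse, was at 6.12 ± 1.17 against 1.92 ± 1.09 per 10000 (3.32-fold, log2 1.73 ± 0.28 SE, adjusted p = 0.00684). Its sum in the other endocrine wells, 69 transcripts, was also low, so its fold and adjusted p are likewise a description. Fev was at 27.3 ± 7.04 against 15.2 ± 13.7 per 10000 (adjusted p = 0.0587). Isl1, a factor of other hormone lineages, was found in 3 of the 72 wells.

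In the serotonin list, 3 genes were tested of 16 in the files besides Tph1, and all 3 were higher. A gene with low sums in the other endocrine wells enters the test through its sum in the Tph1-positive wells. In the other endocrine wells Lmx1a, Tac1, Rgs2, Slc18a1 and Pcsk1 had 17, 23, 27, 34 and 42 transcripts together. The fold and adjusted p of such a gene, and the counts over tested genes of a list, are therefore a description and support nothing. Slc18a1 was at 3.67 ± 0.91 against 1.16 ± 1.40 per 10000 (3.49-fold, adjusted p = 0.0246) and was higher in 4 of 5 libraries. Ddc was at 29.2 ± 8.03 against 15.6 ± 10.8 (1.95-fold, adjusted p = 0.0366), higher in 5 of 5, and Qdpr at 10.8 ± 1.68 against 5.16 ± 2.63 (2.09-fold, adjusted p = 0.0366), higher in 4 of 5. Ddc and Qdpr lost their call when EGFR library 1 or Mek library 2 was left out, and Ddc also without EGFR library 2; over all alternatives their adjusted p rose to 0.166 and 0.215. Among known enterochromaffin genes, 4 of 5 tested were higher: Reg4, Tac1, Lmx1a and Rgs2, a regulator of G protein signalling. Cacna1a, a subunit of P/Q-type calcium channels, was at 5.33 ± 2.46 against 3.34 ± 1.66 and did not pass (adjusted p = 0.152). Of the granin and prohormone processing list, Pcsk1, the convertase that cleaves prohormones, was the call among 3 tested, at 5.87 ± 2.73 against 2.20 ± 2.83 per 10000 (5.01-fold, adjusted p = 0.0116).

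**Figure D3:**
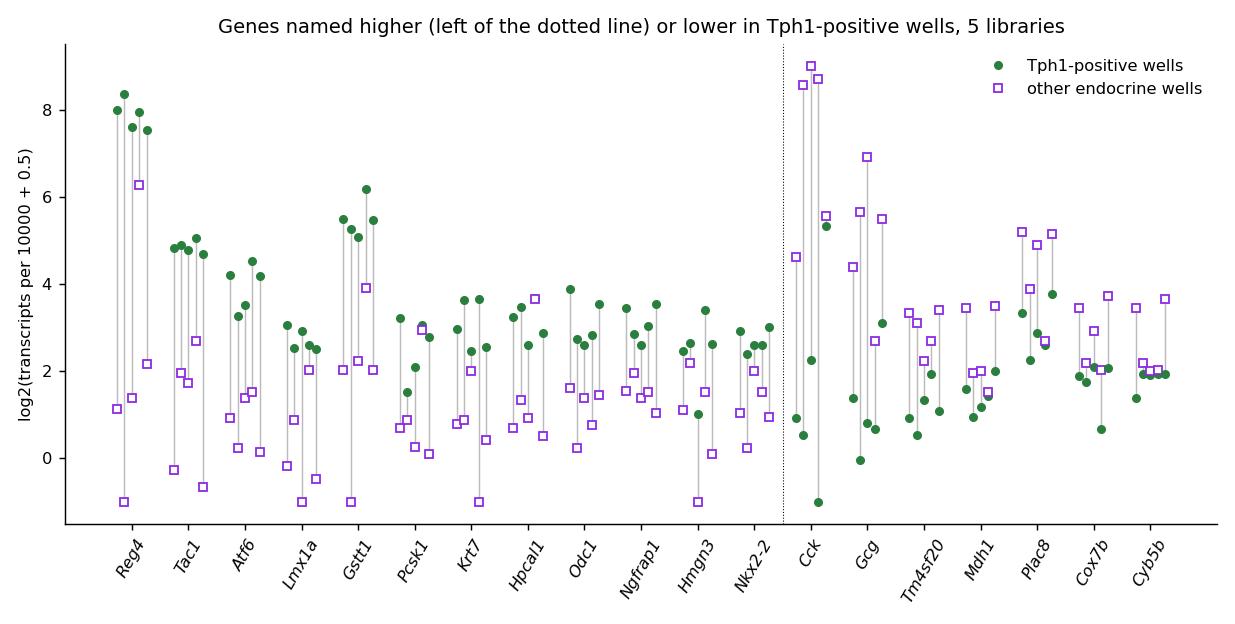
Level in Tph1-positive wells (filled circles) and other endocrine wells (open squares) as log2 of transcripts per 10000 plus 0.5 (y axis) for genes named by rule (x axis); the 5 pairs of points a gene are EGFR libraries 1 to 4 and Mek library 2, left to right. Reg4, Tac1, Atf6, Lmx1a, Gstt1 and Odc1 lie higher in Tph1-positive wells in all 5 libraries, and Gcg lies lower in all 5.

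The remaining genes named as higher were not known markers in the lists. Atf6 was at 18.1, 9.12, 10.98, 22.6 and 17.7 per 10000 in the Tph1-positive wells and at 1.4001, 0.677, 2.12, 2.40 and 0.614 in the other endocrine wells. The classes were far apart in every library, a fitted difference of 11.8-fold (log2 3.56 ± 0.32 SE, adjusted p = 0.000586), and the call held under all 14 alternatives tried (adjusted p up to 0.0207). Atf6 had 45 transcripts in the other endocrine wells together, a low sum, so the limit given above for such genes applies to it. Gstt1, a glutathione transferase, was 9.88-fold higher, and Odc1, which starts polyamine synthesis, 4.01-fold higher. Krt7, a keratin of simple epithelia, was 4.70-fold higher, Hpcal1, a neuronal calcium sensor protein, 4.12-fold, Ngfrap1 (also called Bex3) 3.57-fold and Hmgn3, a nucleosome-binding protein, 3.48-fold. These genes were higher in 5 of 5 libraries, with adjusted p between 0.00455 and 0.0202. In the other endocrine wells together Krt7 had 48 transcripts, Hmgn3 51, Hpcal1 56, Ngfrap1 89 and Odc1 103. The limit for low sums applies to these genes too, so their folds and adjusted p are a description.

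The genes named as lower included hormones of other endocrine types. Gcg, which encodes glucagon-like peptides, was at 2.11, 0.477, 1.27, 1.11 and 8.14 per 10000 against 20.5, 50.3, 120, 6.03 and 44.8, a 20.5-fold difference (log2 -4.36 ± 0.66 SE, adjusted p = 0.00586). Cck, cholecystokinin, was at 1.401, 0.954, 4.31, 0 and 39.9 against 23.99, 381, 516, 420 and 47.2. Cck in the Tph1-positive wells of Mek library 2 came close to that library's other endocrine wells, and 524 of the 655 Cck transcripts over all 72 wells lay in 1 well of that library. The fitted Cck difference was 61.3-fold (log2 -5.94 ± 1.56 SE, adjusted p = 0.0366), and 0.140 without EGFR library 1. Tm4sf20, a tetraspanin-like membrane protein, was at 1.87 ± 0.90 against 7.65 ± 2.50 (6.19-fold lower, adjusted p = 0.00568). Plac8 was 3.55-fold lower, Mdh1 3.71-fold, Cox7b 3.24-fold and Cyb5b 3.15-fold.

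Depth differed between these classes, with a median of 4089 transcripts in Tph1-positive wells and 6710 in other endocrine wells, and a bar of 10 chromogranin transcripts is reached more easily in a deep well. When endocrine wells had to hold 30 chromogranin transcripts, 2 libraries remained, 19 of the 70 calls still tested held and 6 changed sign; Alpi and Mdh1 were then no longer lower (log2 0.53 and 0.16). Among the genes named here, Reg4, Tac1, Lmx1a, Atf6, Gstt1, Rgs2, Slc18a1, Ddc, Pcsk1, Hpcal1, Tm4sf20, Gcg and Cck kept their call, and Nkx2-2, Qdpr, Krt7, Odc1, Ngfrap1, Hmgn3, Plac8, Cox7b and Cyb5b did not. Without EGFR library 1 the count fell from 71 to 11 calls, and without Mek library 2 to 7.

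Against all other kept wells, most of which were not endocrine, the Tph1-positive wells had higher levels of endocrine genes and lower levels of enterocyte genes. In this comparison 570 of 2490 genes were higher (22.9%) and 674 lower (27.1%) in the same test over 5 libraries, Tph1 left out. With DESeq2, which differs in scaling, dispersion and test, the split was 359 higher and 699 lower, with the median over all genes at -0.23 on the log2 scale beside -0.02. Trpa1, an ion channel that senses irritants, was at 7.04 ± 4.12 against 0.0665 ± 0.0734 per 10000 (68.3-fold, log2 6.09 ± 0.35 SE, adjusted p = 1.4e-21). Scn3a, a voltage-gated sodium channel, was at 5.44 ± 2.35 against 0.110 ± 0.110 (37.7-fold, adjusted p = 2.3e-20), and Ucn3, the peptide hormone urocortin 3, at 7.29 ± 9.48 against 0.0803 ± 0.0485 (54.6-fold, adjusted p = 8.9e-19). These 3 genes were near 0 in the other kept wells of all 5 libraries. They therefore entered the test through the Tph1-positive wells and could only come out higher. Their folds and adjusted p are a description and support nothing. Ucn3 was uneven within the Tph1-positive wells, found in 27 wells with up to 25 transcripts.

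Vim was at 7.77 ± 3.05 against 0.0723 ± 0.0466 per 10000 (86.8-fold, adjusted p = 6.6e-24) with the defining immune and stromal markers at 0. Vim too was near 0 in the other kept wells, so its fold and adjusted p are likewise a description. Pak3, a kinase of neurons, was 14.1-fold higher. Of 17 known enterochromaffin genes in the files, 10 were tested; 9 were higher and Gucy2c, the guanylin receptor, was lower (1.57-fold, adjusted p = 0.0191). Several of the 9 entered the test through the Tph1-positive wells, and could then only come out higher: in all other kept wells together Ucn3 had 10 transcripts, Trpa1 12, Amigo2 19, Scn3a 23 and Lmx1a 28. The counts of this and the other lists over tested genes are therefore given as a description. Of 17 exocytosis genes in the files 8 were tested and were higher, and of 21 endocrine transcription factors 10 were tested and were higher. Of 15 granin and processing genes 9 were tested, of which 8 were higher and Scgn, the calcium-binding protein secretagogin, was lower (3.98-fold).

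Of 8 serotonin genes tested besides Tph1, 4 were higher, 2 were lower and 2 were not called. Slc18a1 (6.62-fold), Gch1 (4.72-fold), Qdpr (3.07-fold) and Ddc (2.24-fold) were higher, and Maoa (12.5-fold) and Slc3a2, the shared chain of amino acid transporters (2.36-fold), were lower, each with an adjusted p under the threshold. Pcbd1, which acts in cofactor recycling, was at 2.07 ± 0.82 against 1.90 ± 0.35 per 10000, and Slc7a8, an amino acid transporter chain, at 0.544 ± 0.359 against 1.04 ± 0.287. The other hormones were lower for 5 of 6 tested, led by Gip, the glucose-dependent insulinotropic peptide, at 0.618 ± 0.865 against 39.8 ± 35.1 per 10000 (62.1-fold, adjusted p = 4.3e-20). Of 12 enterocyte genes 10 were tested and were lower, led by Apoa1 at 0.461 ± 0.369 against 28.8 ± 4.45 (67.9-fold, adjusted p = 5.5e-22). Gip and Apoa1 were near 0 in the Tph1-positive wells, so they entered the test through the other kept wells and could only come out lower. The folds and adjusted p of such genes, and the ratios of genes with a few transcripts in the Tph1-positive wells, are a description and support nothing. Of 6 goblet genes tested, Agr2, Guca2a, Spink4, Fcgbp and Muc2 were lower and Tff3 was not called, at 65.7 ± 85.1 against 49.1 ± 49.1 per 10000 (log2 -0.15 ± 0.28 SE, adjusted p = 0.683). Gsta1 and Gsta3 were 59.01-fold and 42.3-fold lower and the antimicrobial lectin Reg3b 58.3-fold lower. For Gm3776, Cldn15 and 2200002D01Rik the Tph1-positive wells held 2, 2 and 3 transcripts; the ratios were 178 (exact 95% interval 49.3 to 1474), 85.96 (23.7 to 711) and 59.8 (20.4 to 291). Gm3776 and Gsta1 are close relatives, and their reads may be shared.

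Levels of Chga and Reg4 ranked alike across the 72 wells. Across wells Spearman's rho, given as a description of per-10000 values from wells that share libraries and depth, was 0.70 between Chga and Reg4. It was 0.75, 0.79 and 0.58 within EGFR library 1, EGFR library 3 and Mek library 2. Between Tph1 and Tac1 rho was 0.12 over all wells and 0.23, 0.17 and -0.0064 in the same 3 libraries; Tph1 chose the wells, so its range begins at 5 transcripts. Neurog3 and Chga gave -0.47. Neurog3 is switched on in progenitors before hormone genes, and at least 3 of its transcripts were found in 12 wells, a number set after the values were seen and so described without a test.

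In those 12 wells the median of Tph1 was 37.4 transcripts per 10000 against 39.8 in the other 60, and that of Chgb 357 against 333. Chga was lower, with a median of 30.4 against 140, as were Reg4, 8.40 against 125, and Tac1, 6.40 against 26.1. Slc18a1 had a median of 0.992 against 3.21 and Pax4, another early endocrine factor, 4.31 against 0. The 12 wells lay in EGFR libraries 1 (5 wells), 2 (1) and 3 (1) and in Mek library 2 (5), and their median depth was 5313 transcripts against 3890. Of the 21 wells with fewer than 10 Reg4 transcripts, 8 were among these 12.

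**Figure D4:**
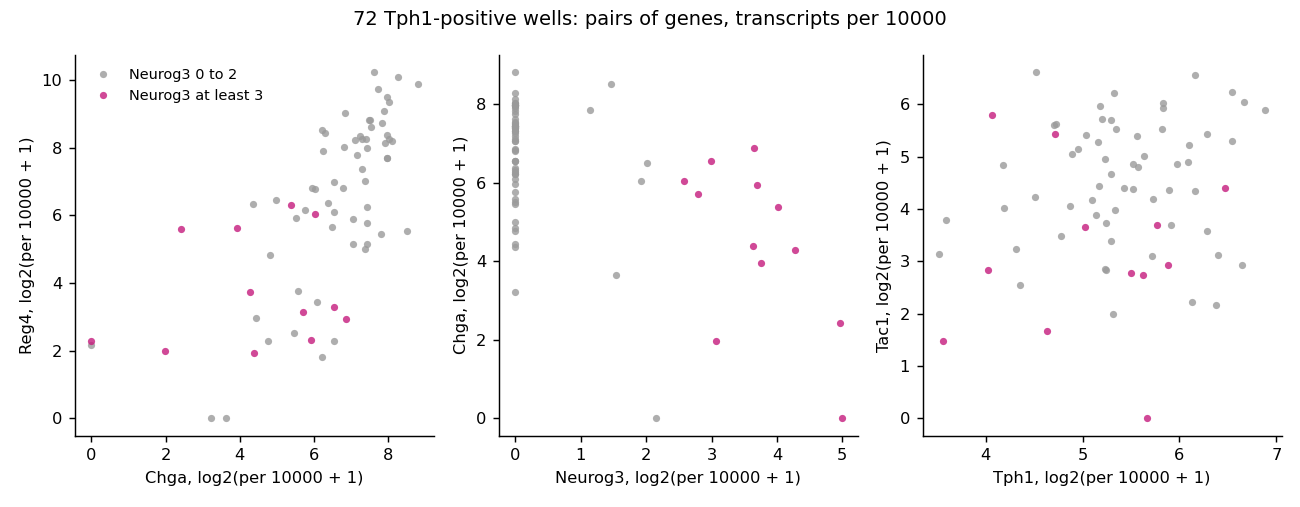
Pairs of genes in the 72 Tph1-positive wells, each axis as log2 of transcripts per 10000 plus 1; magenta points are the 12 wells with at least 3 Neurog3 transcripts and grey points the other 60. Chga and Reg4 move together (rho 0.70) with most magenta points at the low end, and the Tph1 and Tac1 panel, whose wells all hold at least 5 Tph1 transcripts, has a rho of 0.12.

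Other hormones were found in part of the wells. Of 13 hormones measured, 27 wells had at least 5 transcripts of at least 1, and 8 wells at least 10. Sst, somatostatin, reached 5 transcripts in 17 wells with a maximum of 17, Gcg in 10 wells with a maximum of 22, and Cck in 5 wells with a maximum of 524, the next well having 32. Another hormone exceeded Tac1 in 17 wells and Tph1 in 5. In the other endocrine wells the maxima were 596 for Sst, 509 for Gcg and 640 for Cck. Insl5, Iapp and Uts2b were at 0 in all 72 wells.

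Splitting the wells by Tac1 asked whether the substance P cells differ from the rest. Wells with at least 5 Tac1 transcripts numbered 48, with a median depth of 4648, and wells with fewer numbered 24, with a median depth of 3314. In the 3 libraries with at least 3 wells of each kind, 7 of 549 genes were higher with Tac1 (1.28%) and 3 lower (0.546%), 1.82% in all. Reg4 was at 364, 283 and 223 per 10000 with Tac1 against 17.998, 29.99 and 56.96 without, in EGFR libraries 1 and 3 and Mek library 2. The sums per library did not overlap between the kinds of well, a 9.14-fold difference (log2 3.19 ± 0.53 SE, adjusted p = 0.00281). Krt19 was 4.11-fold, Dusp2, a phosphatase of MAP kinases, 3.97-fold, Trpa1 3.31-fold, Net1 2.65-fold and Atf6 2.61-fold higher, and Cck, which 1 deep well dominates, was the remaining call. In the wells with fewer Tac1 transcripts Krt19 had 14 transcripts together, Dusp2 16, Net1 17, Trpa1 24 and Cck 31. Genes with such low sums entered the test through the wells with Tac1 and could only come out higher. Their folds, and the count of 7 higher genes, are therefore a description. The cell cycle inhibitor Cdkn1c was 3.85-fold, the translation factor Gspt1 2.90-fold and the glutathione peroxidase Gpx2 2.24-fold lower. Without EGFR library 1 no gene was called (0 of 540 in edgeR, with 31 at an unadjusted p under 0.05), without Mek library 2 the count was 1, and DESeq2 called Reg4 alone over all 3 libraries. Reg4 also lost its call without EGFR library 3 (adjusted p over the alternatives up to 0.612).

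Chga by this split was at 175 against 29.7 in EGFR library 1 and 141 against 44.8 in EGFR library 3, but 134 against 132 in Mek library 2 (2.70-fold over the 3, adjusted p = 0.186). Lmx1a was at 7.64 ± 1.82 against 4.74 ± 0.72 per 10000 (SD, n = 3; edgeR adjusted p = 0.338), Amigo2, an adhesion protein of neurons, at 4.98 ± 1.19 against 0.905 ± 1.57 (adjusted p = 0.153) and Rgs2 at 11.4 ± 1.95 against 5.15 ± 4.92 (adjusted p = 0.244). None of these passed. None of the 4 serotonin genes tested was called.

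Between treatments, the Tph1-positive wells of Mek library 2 were compared with those of the 4 EGFR libraries, with 1 library on the Mek side assumed to vary like the others. Of 1305 genes, 2 were higher (0.153%) and 4 lower (0.307%), 0.460% in all. None of 6 serotonin genes, 12 endocrine transcription factors, 9 granin and processing genes or 8 exocytosis genes tested was among them. Tac1 was at 29.2 ± 2.62 per 10000 (SD, n = 4) with EGFR inhibition and 25.5 in Mek library 2, Reg4 at 256.3 ± 54.4 and 187, Lmx1a at 6.46 ± 1.26 and 5.25, and Chga at 127 ± 14.2 and 133. At this depth no difference in these genes was detectable; their log2 differences had standard errors of 0.38 to 0.50.

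The 6 calls rested largely on single wells. Cck was at 39.9 per 10000 in Mek library 2 against 1.67 ± 1.86, and 1 well of that library, with 26 Tph1 and 22 Gcg transcripts, held 524 of 655 Cck transcripts. Fcgbp and Spink4, made by goblet cells, and Tff3 were lower in the Mek library; in EGFR library 2 a single well with 6 Tph1 transcripts held 413 of Tff3, 103 of Fcgbp, 39 of Muc2 and 33 of Spink4. Cartpt, a neuropeptide, had 79 of 80 transcripts in 1 well of EGFR library 3. When these 3 wells were left out, a choice made after the values were seen, Gcg remained the one call, at 8.14 against 1.24 ± 0.67 per 10000 in all wells (log2 2.18 without the 3 wells, adjusted p = 0.0152). Gcg lost its call without EGFR library 3 and under DESeq2, Fcgbp without EGFR library 2, and Tff3 without EGFR library 2 or 3.

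Whole organoids after 96 h were compared next, as unsorted material in which the same genes could be read. In bulk RNA more cells of a type and more RNA per cell cannot be told apart. The 18 libraries held 158135 to 1738425 counts. Both contrasts below were set against the same 3 libraries under Wnt and Notch inhibition, so they share their controls. With EGFR inhibition added, 875 of 8135 genes were higher (10.8%) and 1064 lower (13.1%); with Mek inhibition added, 437 were higher (5.37%) and 663 lower (8.15%).

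Tph1 was at 232, 167 and 117 TMM-scaled CPM under Wnt and Notch inhibition, at 240, 304 and 342 with EGFR and at 369, 587 and 501 with Mek inhibition added. Neither triple group overlapped the controls. The rise was 1.71-fold with EGFR (log2 0.77 ± 0.24 SE, adjusted p = 0.0161) and 2.83-fold with Mek (log2 1.501 ± 0.24 SE, adjusted p = 3.3e-05). The call with EGFR was lost without the third control library or the third EGFR library (adjusted p up to 0.137). In standard medium Tph1 was at 13.95 ± 3.32 CPM (SD, n = 3), under EGFR inhibition alone at 105 ± 49.7 and under Mek inhibition alone at 52.5 ± 12.8.

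Serotonin genes rose in part. Of 13 tested, 8 were higher and 1 lower with EGFR, with a median log2 difference of 0.74 beside -0.03 for all genes, and 5 were higher and 1 lower with Mek, with a median of 0.28 beside 0.00. Ddc rose 3.53-fold with EGFR (adjusted p = 7.7e-09) and 2.30-fold with Mek (adjusted p = 1.4e-05), from 1220 ± 181 to 4289 ± 606 and 2799 ± 672 CPM. Ddc was not confined to Tph1-positive cells. In the 5 single-cell libraries compared above, Tph1-positive wells held 830 of its transcripts and the other kept wells 1550. The part of other cells in the rise of Ddc was not tested. Qdpr rose 2.46-fold and 2.28-fold and Slc7a8, a transporter of large neutral amino acids, 2.96-fold and 6.79-fold. Gch1 fell 1.67-fold with EGFR (adjusted p = 0.0109) and 2.00-fold with Mek inhibition (adjusted p = 0.00440). Maoa, low in the Tph1-positive wells, rose 1.73-fold and 1.59-fold in whole organoids (adjusted p = 0.00151 and 0.0111). Leaving out 1 library ended the Gch1 call with EGFR (without its library 1, adjusted p up to 0.0764) and the Maoa call with Mek inhibition (without control library 1 or Mek library 2, up to 0.111).

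**Figure D5:**
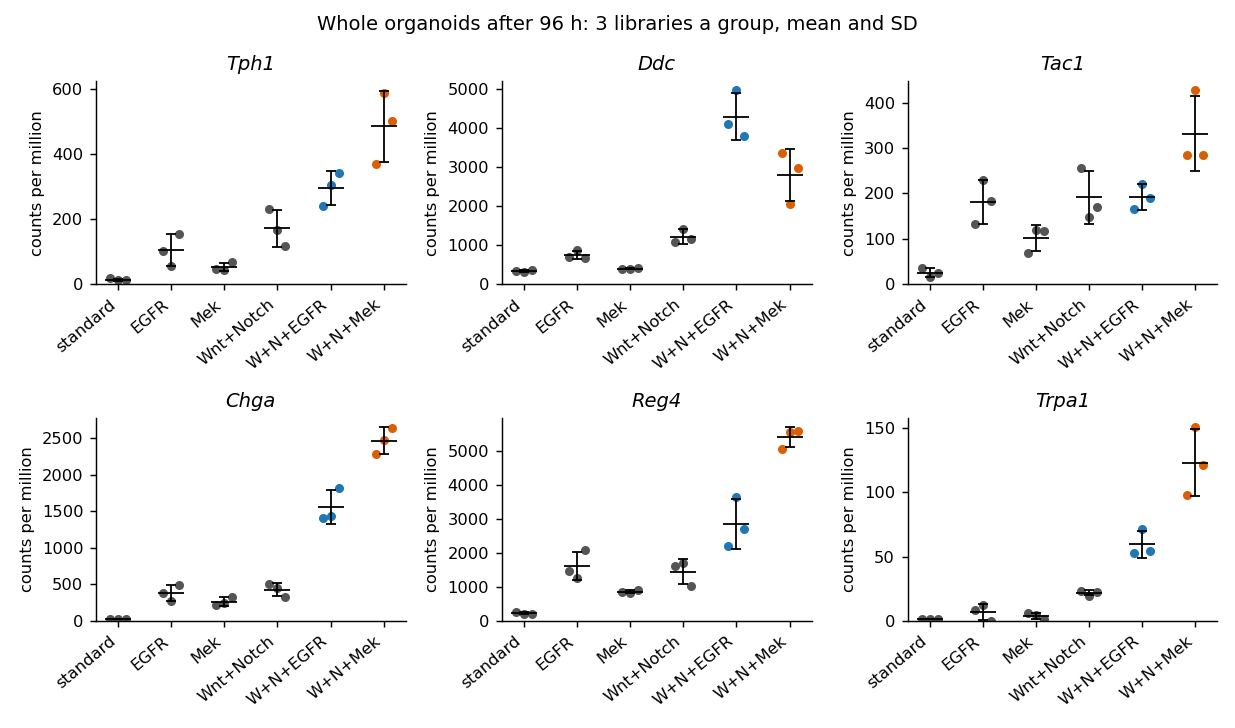
CPM (y axis, linear, from 0) of 6 genes in whole organoids after 96 h in 6 groups of 3 libraries (x axis); points are libraries, and the horizontal mark and bar are the mean and SD. Tph1, Chga, Reg4 and Trpa1 are highest with Wnt, Notch and Mek inhibition, Ddc with Wnt, Notch and EGFR inhibition, and Tac1 has means of 191 and 192 CPM with Wnt and Notch inhibition alone and with EGFR inhibition added.

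Of 12 known enterochromaffin genes tested, 10 were higher with Mek and 3 with EGFR inhibition, and none was lower in either. Tac1 was at 191 ± 57.6 CPM in the controls, 192 ± 28.6 with EGFR (log2 0.00 ± 0.25 SE, adjusted p = 0.996) and 332 ± 82.3 with Mek (1.72-fold, adjusted p = 0.0352; not called under DESeq2 or without control library 2 or 3 or Mek library 2, adjusted p up to 0.242). Reg4 rose 1.97-fold and 3.73-fold (adjusted p = 0.000602 and 5.6e-08) and Trpa1 2.73-fold and 5.59-fold (adjusted p = 0.00128 and 1.4e-06). Scn3a rose 3.22-fold and Afp, alpha-fetoprotein, 4.16-fold with Mek inhibition. The difference between the 2 triple groups was not tested. Chga was at 426 ± 91.5 CPM in the controls, 1554 ± 232 with EGFR and 2466 ± 182 with Mek inhibition added.

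The genes named above from endocrine wells were read in the same samples. Of the 12 named as higher there, 11 were tested; 5 were higher with EGFR and 8 with Mek inhibition, and none was lower. Atf6 rose 2.68-fold and 4.37-fold (adjusted p = 2.1e-05 and 4.9e-08), Ngfrap1 2.30-fold and 4.501-fold and Gstt1 2.28-fold and 2.51-fold. Lmx1a rose 4.16-fold with Mek (adjusted p = 0.00343) and was at 31.8 ± 13.8 against 13.1 ± 2.83 CPM with EGFR (adjusted p = 0.0997). Nkx2-2 rose 4.28-fold with Mek inhibition (adjusted p = 0.0135; not called without control library 3 or Mek library 1, up to 0.0784). Markers of other cell types moved in the same contrasts: 4 of 7 tuft genes tested were higher with EGFR and 6 of 7 with Mek inhibition, 7 and 8 of 10 dividing-cell genes were lower, and 7 and 6 of 10 goblet genes were lower. Of 12 enterocyte genes, 5 were lower and 3 higher with EGFR, and 6 were lower and 1 higher with Mek inhibition. Their part in these results was not tested.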

How the data were processed

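Single-cell RNA was measured by CEL-seq, per the labels' protocols, in plates of 96 wells, 1 plate a library. The deposited single-cell values are transcript estimates: all but 8 of 1273208 values above 0 match, within 0.01 identifiers, the logarithmic correction of a whole number of identifiers out of 256. The bulk files hold deposited counts per gene, whole numbers. The submitters' processing notes name BWA 0.6.2-r126 and build mm10; annotation and counting settings are not given in the sources used here. Rows of spike-in RNA were dropped, and wells under 1500 transcripts left out. No doublet caller was run, and no 2 kept wells held identical values; well numbers 1 to 96 recur in every library and mark different plates.

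Transcripts were summed per library and class of wells, for libraries with at least 3 wells in each class, rounded to whole numbers, filtered with filterByExpr, scaled by TMM and tested with edgeR 4.0.16 (R 4.3.3; quasi-likelihood, library as block, Benjamini-Hochberg adjustment over all genes tested, threshold 0.05). Bulk counts of all 18 libraries at 96 h entered 1 such fit without a block. A level per 10000 is a share of a well's or a sum's transcripts; CEL-seq reads one end of each transcript, so no length scaling was made. Bulk CPM are TMM-scaled. The edgeR tests on well sums treat corrected transcripts as counts; they are estimates and not raw counts, a limit of these p-values. DESeq2 1.42.0 was an alternative, with others on filters, thresholds, depth and left-out libraries. Scripts ran in Python 3.11.15 and were tested on simulated data. Genes were named by rule: list genes, and up to 12 higher and 8 lower by size of change, with at least 5 transcripts per 10000 and one direction in every library; between treatments, up to 6 each way with groups that do not overlap. Other genes of few calls (Cartpt, Fcgbp, Spink4) are list genes. The wells and lists were chosen with earlier results of these data known. Some genes of the lists are counted but not reported here by name.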

Additional observations from a re-analysis of the deposited data

Results flagged for a closer look

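A test for values far from the others of their group was run on 27 gene levels and shares over the 4 EGFR libraries, and it marked 2, where chance marks about 1 in 20. Tff3 in the Tph1-positive wells of EGFR library 2 was at 217 transcripts per 10000, far above the other EGFR libraries at 23.3 to 43.8; 413 of its transcripts there came from 1 well. Vim in the same library was at 2.39 per 10000, below the other EGFR libraries at 8.41 to 9.33. Among wells left out for having fewer than 1500 transcripts, 5 held at least 5 Tph1 transcripts, 2 in EGFR library 1 and 3 in Mek library 1, the library with 1 kept Tph1-positive well.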

How the results depend on the processing

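Depth limits these results: 325 wells were below 1500 transcripts, Mek inhibition rests on 1 usable library, and the well sums of EGFR library 4 come from 4 wells. The share of Tph1-positive wells had no stable direction between the treatments, with a difference of -6.63 points among endocrine wells and -18.97 to 22.3 points when 1 library was left out. Against all other kept wells the 1244 calls became 2223 without a filter on low sums and 249 with wells thinned to 1500 transcripts; DESeq2 put 33.9% of its calls higher against 45.8%, with a shift of the median over all genes from -0.02 to -0.23. Against other endocrine wells the 71 calls became 641 without a filter, 1357 at a minimum of 3000 transcripts and 9 after thinning, and 7 to 249 when 1 library was left out; Alpi (0.53) and Mdh1 (0.16) turned positive at 30 chromogranin transcripts. Between treatments the 6 calls became 1 under DESeq2, 1 without the 3 wells (an alternative chosen after seeing the data) and 3 to 7 when 1 library was left out, and Tac1 turned to 0.16 without a filter. For the Tac1 split the 10 calls became 1 under DESeq2, 25 without a filter, 5 on identifier numbers, 4 at a minimum of 3000 transcripts, 1 after thinning, 2 without the library block, 6 without the 3 wells and 0 to 10 when 1 library was left out. In bulk, calls with Mek inhibition ran from 719 to 936 when 1 library was left out (main 1100), and the log2 difference of Tac1 with EGFR inhibition was 0.029 without a filter, 0.012 in the 6 libraries alone and -0.14 to 0.27 when 1 library was left out. The cause was not tested. Bulk replicate numbers do not pair the libraries (same-number correlations -0.04 to 0.03); with the replicate block 1873 and 1110 genes were called against 1939 and 1100. By shared library number, which nothing says pairs the libraries, the shares under EGFR and Mek inhibition were 30% and 4.76% (number 1) and 23.5% and 46.03% (number 2), in opposite directions. No paired analysis was possible because, within Tph1-positive wells, the treatments share only number 2.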
